A study of Equus caballus with 10 samples.

Results

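The dual-specificity MAP kinase phosphatases are a family of 10 genes, DUSP1, DUSP2, DUSP4, DUSP5, DUSP6, DUSP7, DUSP8, DUSP9, DUSP10 and DUSP16, and they were taken by symbol from the 29196 genes of the deposited expression table. All 10 were listed there, and all 10 passed the filter on low values, which asked for a value above the lowest of the table in at least 5 of the 10 libraries. The data are RNA sequencing of tenocytes, the resident fibroblasts of tendon, from the superficial digital flexor tendon of adult horses of Thoroughbred type, cultured for 14 days in 3D gels of bovine collagen type I. The cells of 5 donors were treated either with PF-06650833 alone at 100 nM, added daily, or with the same PF-06650833 plus IL-1β at 17 ng/ml, added every 3 to 4 days, so each group holds 5 libraries and each donor gives 1 library to each group. PF-06650833 inhibits IRAK-4, a kinase that passes the signal on from the IL-1 receptor, and every library had received it, so the comparison asks what IL-1β still changes when IRAK-4 is inhibited. Libraries of untreated cells and of IL-1β alone were not analysed here. The ages of the single donors are not given in the sources used here.

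MAP kinases are switched on by phosphorylation of a threonine and a tyrosine in their activation loop, and these phosphatases remove both phosphates and so end the signal. Within the family, DUSP1, DUSP2, DUSP4 and DUSP5 are nuclear enzymes whose genes are typically switched on by the signals they later quench. DUSP6, DUSP7 and DUSP9 are cytoplasmic and act mainly on ERK, and DUSP8, DUSP10 and DUSP16 act mainly on JNK and p38. IL-1β activates ERK, JNK and p38 in connective tissue cells, and transcripts of inflammatory genes are among those that the pathway stabilizes.

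The values are log2 expression values that the authors normalized between libraries, on a scale where a gene without reads has 3.4332. On this scale a difference of 1 is a doubling for well-expressed genes and understates the change of genes with few reads, such as DUSP2 and DUSP9. Inverting the transformation gave normalized counts, and the value of 1 read on that scale gave an estimated 26400000 to 35700000 reads on genes per library. Of 13 tendon fibroblast markers 12 were listed, SCX, MKX and COMP were lower with IL-1β, and COL1A1, COL1A2, SCX and MKX had reads in all libraries, but TNMD, the gene of tenomodulin, was at the value of 0 reads in all 10. Of 12 leukocyte and macrophage markers, CD3E and CD3G had no reads in any library, PTPRC reached 3.09 normalized counts at most and CSF1R 1.14. Others had reads: CD14 ranged from 0 to 1662 normalized counts without IL-1β and from 0 to 1682 with it (log2 fold change 2.66, adjusted p = 0.340 from limma), and ITGAX reached 114 and 170. The summed level of this list overlapped between the groups, at 81.9 to 1792 normalized counts without IL-1β and 207 to 1998 with it, although CD68 was higher (log2 fold change 1.70, adjusted p = 0.00795 from limma). The 8 endothelial markers summed to 16.3 to 51.5 and 5.12 to 30.7 normalized counts. Of 7 mural cell markers 6 were listed, 3 of them (RGS5, CSPG4 and DES) were lower with IL-1β, and the sum over the list ranged from 3740 to 36822 and from 4441 to 13102. Of 6 epithelial markers EPCAM and KRT5 had no reads, CDH1 was lower, and the sums were 539 to 1574 and 45.4 to 444. Of 6 skeletal muscle markers MYOD1, MYF5, PAX7 and MYOG had no reads, and the sums were 4.49 to 1150 and 0 to 13.4. Of 6 chondrocyte markers COL9A1 had none, SOX9 was lower, and the sums were 856 to 1370 and 255 to 520. The part of these differences in the results below was not tested.

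Within the family, DUSP16, DUSP2 and DUSP1 were higher with IL-1β plus PF-06650833 in all 5 donors, DUSP10 and DUSP7 were lower in all 5, and the remaining 5 genes went up in some donors and down in others. Of all tested genes, 16.0% were higher and 16.8% lower in all 5 donors. At the thresholds of the study (adjusted p under 0.05, log2 fold change of 1 or more in either direction), 0 of the 10 genes were differentially expressed in limma without a donor term, against 6.68% of the 17992 tested genes. The study applied these thresholds to DESeq2 results. Here they were applied to differences on the log2 scale described above, so the counts are not comparable with those of the study. Of the 10, 4 had an unadjusted p below 0.05, as did 29.7% of all genes. At an adjusted p below 0.05 with no minimum fold change, DUSP16 passed as higher, with 7.57% of all genes higher, and no gene of the family passed as lower, with 7.89% of all genes lower. With the donor as a replicate block, which compares the libraries of a donor with each other, DUSP2 was differentially expressed, against 8.26% of all genes. In that fit DUSP2 and DUSP16 passed the adjusted p as higher, against 10.9% of all genes, and DUSP10 and DUSP7 as lower, against 11.3%. In bulk RNA, a change in the number of cells of a type and a change in RNA per cell cannot be told apart.

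**Figure D1:**
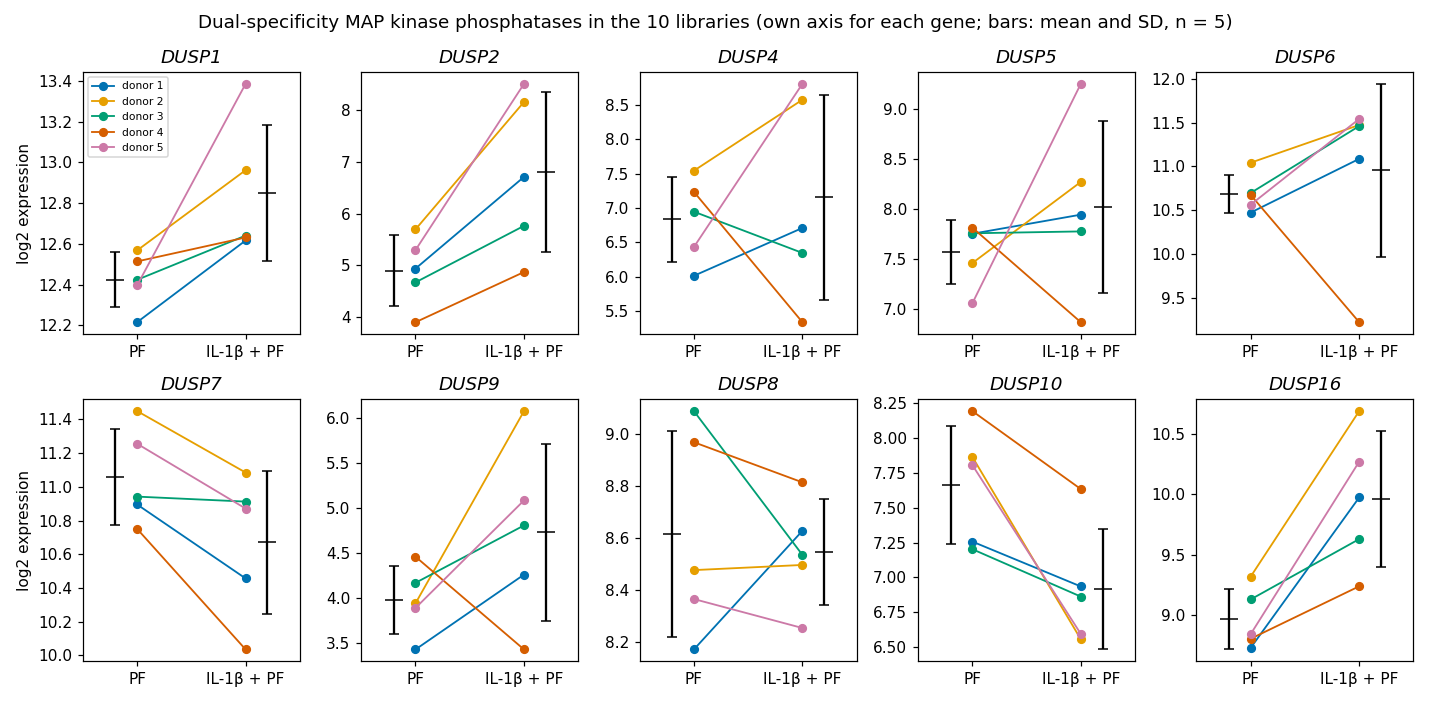
Log2 expression of each of the 10 phosphatase genes (y axis, own range for each gene) with PF-06650833 alone (PF) and with IL-1β plus PF-06650833 (x axis); lines join the libraries of a donor, and the black bars are the mean and SD of 5 libraries. All 5 lines rise for DUSP1, DUSP2 and DUSP16 and all 5 fall for DUSP7 and DUSP10, while donor 4 falls against most other donors for DUSP4, DUSP5, DUSP6 and DUSP9.

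Among the nuclear phosphatases, DUSP2 had the largest fold change of the family. DUSP2, first described as a phosphatase of activated leukocytes, prefers ERK and p38. Its log2 values with PF-06650833 alone were 4.93, 5.69, 4.67, 3.90 and 5.29 in donors 1 to 5, and with IL-1β plus PF-06650833 they were 6.71, 8.16, 5.76, 4.87 and 8.51. Donors 2 and 5 were the highest in both groups and donor 4 the lowest in both, so the groups overlapped although each donor rose. DUSP2 thus had a log2 fold change of 1.91 (SE 0.66, 95% interval 0.46 to 3.35, adjusted p = 0.0750 from limma), and with the replicate block the adjusted p was 0.00735 (SE 0.34). DUSP2 is a gene with few reads, with an estimated 1 to 24 reads in the libraries without IL-1β and 8 to 294 in those with it. The mean normalized count was 9.82 times as high with IL-1β plus PF-06650833, a ratio larger than the fold change on the stabilized scale. Without the IL-1β plus PF-06650833 library of donor 4, DUSP2 passed also without the block (log2 fold change 2.39, adjusted p = 0.0166 from limma), as it did without both libraries of donor 4 (2.14, adjusted p = 0.0373). Without both libraries of donor 1, 2, 3 or 5 it did not pass in that fit (adjusted p = 0.0941 to 0.198). Leaving out the IL-1β plus PF-06650833 library of donor 2 or 5 lowered the log2 fold change to 1.57 or 1.48 (adjusted p = 0.167 and 0.153).

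DUSP1 encodes MKP-1, the phosphatase that inactivates p38 and JNK and is a well-known target of glucocorticoids. DUSP1 had log2 values of 12.22, 12.57, 12.42, 12.51 and 12.40 with PF-06650833 alone and of 12.62, 12.96, 12.64, 12.63 and 13.39 with IL-1β plus PF-06650833. It was the only gene of the family whose groups did not overlap, with donor 5 far above the other libraries. Groups that did not overlap were found in 6.29% of all genes in the higher direction and in 6.41% in the lower direction, where the family had 0. For DUSP1 the difference of the means was 0.42 (SE 0.15, adjusted p = 0.0829 from limma, and 0.0536 with the replicate block). DUSP1 therefore passed the threshold in neither fit. In the fit with the block, where leaving out donors was added after the data had been seen, its adjusted p was 0.0415 without donor 4 and 0.0648 to 0.139 without any other donor.

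DUSP4, which acts on ERK and JNK in the nucleus, went in opposite directions in different donors. Its log2 values with PF-06650833 alone were 6.02, 7.54, 6.95, 7.24 and 6.43, and with IL-1β plus PF-06650833 they were 6.71, 8.58, 6.35, 5.34 and 8.81. DUSP4 was higher with IL-1β in donors 1, 2 and 5 and lower in donors 3 and 4, with differences from -1.90 in donor 4 to 2.37 in donor 5. The log2 fold change of DUSP4 was 0.32 (95% interval -1.06 to 1.70, adjusted p = 0.785 from limma). Its sign turned without the IL-1β library of donor 5 (-0.09) or of donor 2 (-0.03), and without both libraries of donor 5 (-0.19). The SD of the 5 donor differences of DUSP4 was 1.63, and 99.2% of the tested genes had a smaller one.

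DUSP5, a nuclear phosphatase specific for ERK, had log2 values of 7.75, 7.46, 7.76, 7.81 and 7.06 with PF-06650833 alone and of 7.94, 8.27, 7.77, 6.87 and 9.25 with IL-1β plus PF-06650833. In DUSP5, donor 5 went from the lowest value of its group to the highest, and donor 4 from the highest to the lowest. The log2 fold change of DUSP5 was 0.45 (95% interval -0.35 to 1.26, adjusted p = 0.456 from limma), and the donor differences ranged from -0.94 to 2.19. Without both libraries of donor 5 it was 0.02 (adjusted p = 0.982), and without both of donor 4 it was 0.80 (adjusted p = 0.141).

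Among the cytoplasmic phosphatases of ERK, the result for DUSP6 turned on a single library. DUSP6 encodes MKP-3, a feedback inhibitor whose transcript follows ERK activity in many cells. With PF-06650833 alone the 5 log2 values of DUSP6 lay close together, at 10.47, 11.04, 10.70, 10.67 and 10.56. With IL-1β plus PF-06650833 they were 11.09, 11.47, 11.46 and 11.54 in donors 1, 2, 3 and 5, all above every library with PF-06650833 alone, and 9.22 in donor 4, below every other library. Over all libraries DUSP6 differed by 0.27 (SE 0.39, 95% interval -0.58 to 1.12, adjusted p = 0.705 from limma). Without the IL-1β library of donor 4 it was 0.70 (SE 0.14, adjusted p = 0.00653), and without both libraries of donor 4 it was 0.70 (adjusted p = 0.0160, or 0.00706 with the replicate block). The fit with the block and without a donor was added after the data had been seen. Without both libraries of any other donor the difference was 0.09 to 0.23 (adjusted p = 0.826 to 0.938 from limma without the block). Leaving out donor 4 removes the donor that went against the rest, so these p-values do not test a rise of DUSP6. The value in donor 4 rests on an estimated 406 reads.

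DUSP7, which also acts on ERK, was lower in each donor once IL-1β was added. Its log2 values were 10.90, 11.45, 10.94, 10.75 and 11.26 with PF-06650833 alone and 10.46, 11.08, 10.91, 10.04 and 10.87 with IL-1β added. Donor 3 hardly differed, by -0.03, and the fall was largest in donor 4, at -0.72. The log2 fold change of DUSP7 was -0.39 (95% interval -0.83 to 0.06, adjusted p = 0.234 from limma, and 0.0363 with the replicate block). In the fit with the block, where leaving out donors was added after the data had been seen, DUSP7 passed without donor 3 (adjusted p = 0.0190). It did not pass there without any of the other 4 donors.

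DUSP9 was near the limit of detection. An estimated 0, 1, 2, 5 and 1 reads were counted in donors 1 to 5 with PF-06650833 alone, and 3, 42, 9, 0 and 14 with IL-1β plus PF-06650833. DUSP9 was higher in 4 donors and lower in donor 4, where no read was found after IL-1β. DUSP9 differed by 0.75 (95% interval -0.16 to 1.67, adjusted p = 0.258 from limma). Of 27 alternatives 1, the fit with the block and without donor 4, which was added after the data had been seen, counted it as differentially expressed (1.198, adjusted p = 0.0252). Without donor 2 the same fit gave 0.41 (adjusted p = 0.518).

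Among the phosphatases of JNK and p38, DUSP16 and DUSP10 differed in opposite directions. DUSP16 encodes MKP-7, which shuttles between nucleus and cytoplasm and prefers JNK. The log2 values of DUSP16 were 8.73, 9.32, 9.13, 8.80 and 8.84 with PF-06650833 alone and 9.98, 10.69, 9.63, 9.24 and 10.27 with IL-1β plus PF-06650833. Only donor 4 with IL-1β lay inside the range of the other group, under the value of donor 2 with PF-06650833 alone. DUSP16 had a difference of means of 0.998 (SE 0.25, 95% interval 0.46 to 1.54, adjusted p = 0.0195 from limma), just under the minimum of 1. It rose to 1.01 with quantile normalization and to 1.03 with median centring, and DUSP16 then counted as differentially expressed. It was also counted without the IL-1β library of donor 4 (1.18) or of donor 3, without either of the PF-06650833 libraries of donors 2 and 3, and without both libraries of donor 3 or of donor 4. Without both libraries of donor 1 or of donor 5 its adjusted p was 0.0983 and 0.101, above the threshold.

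DUSP10 encodes MKP-5, which dephosphorylates p38 and JNK. Its log2 values were 7.26, 7.87, 7.20, 8.19 and 7.81 with PF-06650833 alone and 6.94, 6.56, 6.86, 7.63 and 6.59 with IL-1β plus PF-06650833. Donors 2 and 5 changed most, with -1.31 and -1.21 on the log2 scale, and they are also the donors in which DUSP2 and DUSP16 rose most. Donor 4 was the highest of each group. DUSP10 differed by -0.75 (SE 0.27, 95% interval -1.33 to -0.17, adjusted p = 0.0814 from limma), and the adjusted p was 0.0337 with the replicate block. It was 0.0237 without the block when the IL-1β library of donor 4 was left out, and 0.0490 when both were. Leaving out both libraries of any other donor gave 0.0859 to 0.287 without the block. In the fit with the block, where leaving out donors was added after the data had been seen, DUSP10 passed without donor 3 (adjusted p = 0.0375). Without any other donor its adjusted p there ranged from 0.0528 to 0.111.

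DUSP8, a phosphatase of JNK and p38 best known from brain and heart, did not differ detectably. Its log2 values were 8.17, 8.48, 9.09, 8.97 and 8.36 with PF-06650833 alone and 8.63, 8.50, 8.53, 8.81 and 8.25 with IL-1β plus PF-06650833. The libraries with IL-1β all lay inside the range of the others. DUSP8 differed by -0.07 (95% interval -0.50 to 0.36, adjusted p = 0.859 from limma), and the sign of this small difference depended on which libraries were used.

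**Figure D2:**
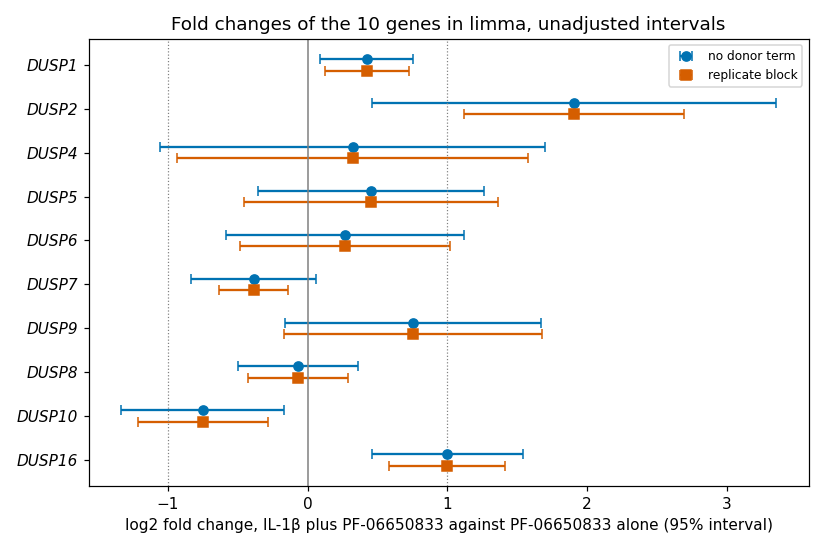
Log2 fold change of each gene (x axis) with its 95% interval, from limma without a donor term (circles) and with the replicate block (squares); dotted lines mark -1 and 1. The intervals of DUSP1, DUSP2, DUSP10 and DUSP16 exclude 0 in both fits, that of DUSP7 with the block, and these intervals are not adjusted for the number of genes.

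The 10 genes had a median log2 fold change of 0.37, against -0.01 over all tested genes, but the median spread between donors was also larger. The median SD of the donor differences was 0.72 for the family and 0.34 for all tested genes. DUSP2, DUSP4, DUSP5, DUSP6 and DUSP9 each had a larger SD than 95.1% or more of the tested genes, whereas DUSP7, the steadiest of the family, had a larger one than 31.8%. DUSP1 and DUSP8 lay near the middle (50.3% and 54.4%), and DUSP10 and DUSP16 at 69.6% and 70.8%. These shares are over all tested genes, not over genes of like expression level.

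Donor 4 stood at the low end of this spread. Taken with its sign, so that a fall counts as lower than a rise, the difference between the groups was lowest in donor 4 for 8 of the 10 genes, all but DUSP8 and DUSP10, and the same count was found with each library centred on its median. Over all tested genes donor 4 had the lowest signed difference in 23.9%. In size, the changes of DUSP6 and DUSP7 were largest in donor 4, both as falls. Donor 5 had the highest signed difference for 6 genes, DUSP1, DUSP2, DUSP4, DUSP5, DUSP6 and DUSP16, against 19.7% of all genes. In donor 4, 7 of the 10 genes were lower with IL-1β plus PF-06650833, and only DUSP1, DUSP2 and DUSP16 were higher. Over all tested genes the median difference in donor 4 was -0.003, so falls were about as common as rises there. IL6, a cytokine gene and classical target of IL-1β, rose in donor 4 by 10.88 on the log2 scale, more than in donors 1, 2, 3 and 5 (9.06, 9.19, 4.54 and 10.31). Over the 1202 genes differentially expressed in all libraries, the median difference in the direction of change was 1.10 in donor 3, 1.61 in donor 1, 1.78 in donor 2 and 1.96 in donor 5, with donor 4 between donors 3 and 1. The 1202 genes and their directions were taken from these same libraries, so positive medians follow in part from the choice. The values of this paragraph are descriptions of 5 donors and carry no test.

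**Figure D3:**
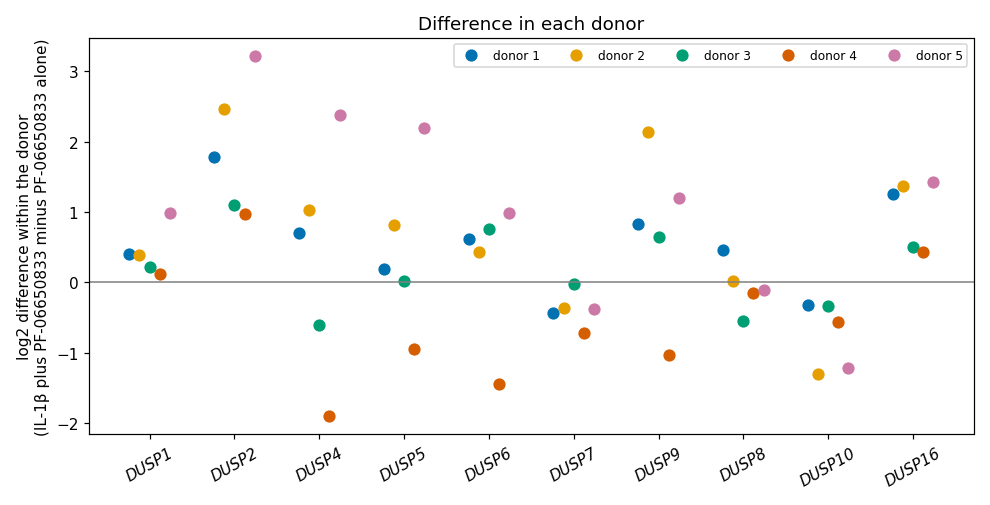
Difference in log2 expression between IL-1β plus PF-06650833 and PF-06650833 alone within each donor (y axis) for the 10 genes (x axis). Donor 4 is lowest for 8 genes and donor 5 highest for 6, and the points of DUSP4 spread from -1.90 to 2.37.

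The genes with the profile most like DUSP2, by the root mean square difference of centred log2 values over the 10 libraries, were HMGA1, which encodes an architectural chromatin protein (0.29), RTN4RL2, a receptor related to the Nogo receptor (0.35), and GCNT4, a glycosyltransferase (0.36). Nearest to DUSP16 were TNIP1, whose product binds the ubiquitin-editing enzyme A20 (0.17), the secreted proteoglycan gene TSKU (0.18) and RHBDD2 (0.19). Nearest to DUSP9 were BCL6B (0.25), SLC10A4 (0.31) and PDE2A (0.32), at the low levels where small read numbers shape the profile. HMGA1 rose by 0.19 in donor 4 and by 3.79 in donor 5, the same ends of the range as for DUSP2. The log2 fold change was 1.88 for HMGA1 (adjusted p = 0.0886 from limma) and 1.03 for TNIP1 (adjusted p = 0.00652). These genes were picked for their likeness over the same 10 libraries. A like order of donors and a like fold change therefore follow from the choice and are no separate result.

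The genes around the phosphatases in the pathway were followed in 10 lists with 127 tested genes, of which 11 were higher (8.66%) and 15 lower (11.8%) at an adjusted p below 0.05 from limma. Of all tested genes 7.57% were higher and 7.89% lower, shares near those of the lists, so the counts are given as a description of these genes. Of 13 tested MAP kinases, 4 passed and were lower and 9 did not pass, with a median log2 fold change of -0.29. MAPK12, which encodes p38γ, fell from 9.93 ± 0.15 (SD, n = 5) to 9.22 ± 0.11 (SD, n = 5), a difference of -0.71 (adjusted p = 0.00156). MAPK11, the gene of p38β (-0.63), and MAPK9, the gene of JNK2 (-0.49), were also lower, and the groups of these 3 genes did not overlap. MAPK14, the gene of p38α, and MAPK8, the gene of JNK1, did not pass (log2 fold changes -0.06 and 0.10, adjusted p = 0.665 and 0.458 from limma). With the replicate block NLK was also higher (0.42, adjusted p = 0.0398).

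Of 7 tested MAP kinase kinases, MAP2K2, which encodes MEK2 and activates ERK, was higher (log2 fold change 0.52, adjusted p = 0.00938 from limma). MAP2K3, an activator of p38, had a log2 fold change of 0.52 with overlapping groups (adjusted p = 0.0917), and 0.0376 with the replicate block. Of 24 tested genes of MAP3 kinases and partners of TAK1, 1 was higher and 2 were lower. MAP3K20, the gene of the stress kinase ZAK, fell from 12.32 ± 0.44 (SD, n = 5) to 11.02 ± 0.22 (SD, n = 5), a difference of -1.30 (adjusted p = 0.00181). MAP3K7, which encodes TAK1, the kinase that passes the IL-1 signal to JNK and p38, had a log2 fold change of -0.67, and MAP3K11 of 0.82. With the replicate block MAP3K5, the gene of ASK1, was also lower (-0.82, adjusted p = 0.00460, lower in 5 of 5 donors). Of 12 tested scaffold genes, LAMTOR2 was higher (0.49), and ARRB1 had a log2 fold change of -1.10 (adjusted p = 0.0545, and 0.0460 with the replicate block).

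Outside the family, 2 of 10 tested atypical dual-specificity phosphatases were lower. DUSP22, which is known as a regulator of JNK signalling, had a log2 fold change of -1.06 (adjusted p = 0.0229 from limma, SE 0.27) and was lower in 5 of 5 donors, but it lost the call when a PF-06650833 library of donor 2 or 5, the IL-1β library of donor 2, or both libraries of donor 1, 2, 4 or 5 were left out (log2 fold changes of -1.19 to -0.80). STYX, which encodes a pseudophosphatase that binds ERK, had one of -0.58. Of 8 other phosphatases acting on MAP kinases, 0 passed in limma, with 1 at an unadjusted p below 0.05 and 0 with the replicate block. PPM1L and PTPN7 had the largest log2 fold changes there, -0.36 and -0.35. Of 7 Sprouty and SPRED genes, which encode feedback inhibitors upstream of ERK, SPRY3 was higher, from 4.52 ± 0.26 (SD, n = 5) to 6.36 ± 0.46 (SD, n = 5), and SPRY2 passed only with the replicate block (log2 fold change 0.71, adjusted p = 0.0518, and 0.0217 with the block). Without IL-1β, SPRY3 lay close to the 3.4332 of a gene without reads.

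Of 14 tested transcripts that commonly follow ERK activity, 4 were higher and 0 lower, against 7.57% and 7.89% of all tested genes, and their median log2 fold change was 0.71. With the replicate block 6 were higher and ETV5 was lower (-0.48, adjusted p = 0.0318). IER3, an early response gene that is also a target of NFκB, rose from 11.32 ± 0.39 (SD, n = 5) to 15.38 ± 0.83 (SD, n = 5), a difference of 4.06 (adjusted p = 1.16e-04 from limma). FOSL1, a member of AP-1, had a log2 fold change of 1.40, and the ETS factors ETV1 and ETV4 of 1.17 and 1.03. Each of these 4 was higher in 5 of 5 donors, donor 4 included. Of the 14 genes, 6 had their lowest signed difference in donor 4, among them ETV1.

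Of 22 tested immediate-early transcription factors, 2 were higher and 3 lower, and the median log2 fold change was 0.01. With the replicate block 4 were higher and 3 lower, with FOS (0.64, adjusted p = 0.0318) and NR4A2 (1.60, adjusted p = 0.0324) added. NR4A3, an orphan nuclear receptor, had a log2 fold change of 1.30 (adjusted p = 0.0395 from limma) and KLF4 one of -1.05 (adjusted p = 0.00487). NR4A3 lost the call without the PF-06650833 library of donor 3 or 4, the IL-1β library of donor 1, 2 or 5, or both libraries of donor 1, 2, 3 or 5 (1.04 to 1.44), and KLF4 fell short without the PF-06650833 library of donor 3 or 4, the IL-1β library of donor 1, or both libraries of donor 1, 3 or 4 (-0.98 to -0.90). KLF6 and KLF10 were also lower (-0.71 and -0.80). Of 16 tested kinases activated by MAP kinases and genes of mRNA decay, 2 were higher and 4 lower, and 4 and 6 with the replicate block. ZFP36L2, whose product destabilizes mRNAs with AU-rich elements, fell from 11.19 ± 0.24 (SD, n = 5) to 9.75 ± 0.47 (SD, n = 5), a difference of -1.44 (adjusted p = 0.00150). MKNK2, a kinase of the translation factor eIF4E, had a log2 fold change of -1.14, and -0.99 without the PF-06650833 library of donor 4. MAPKAPK2, the main kinase downstream of p38, was higher by 0.50 and MAPKAPK3 lower (-0.62).

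**Figure D4:**
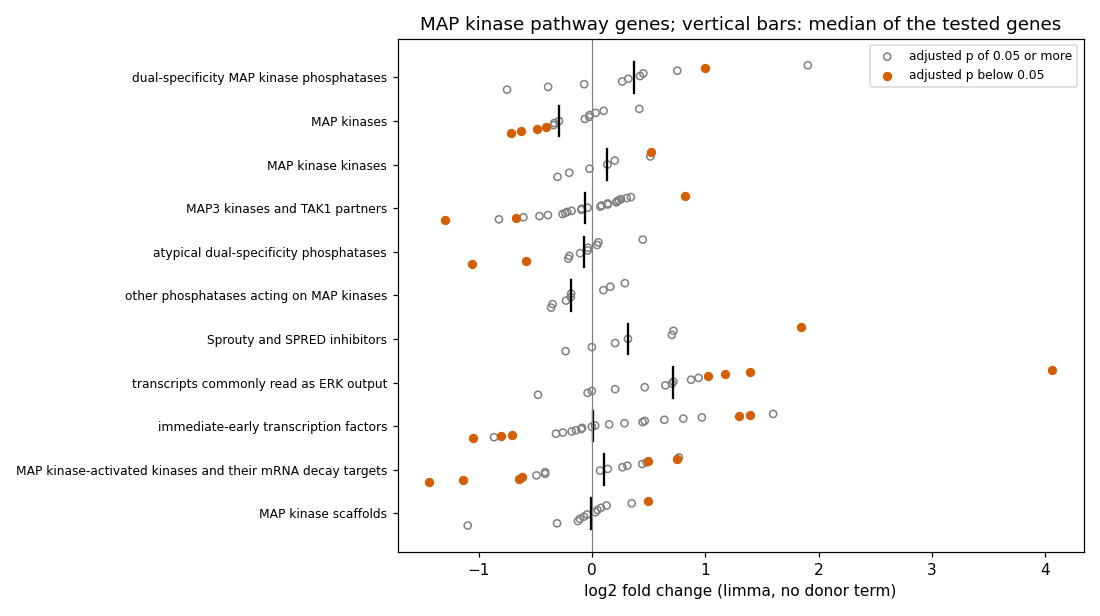
Log2 fold change (x axis) of each tested gene of the family and of 10 lists of pathway genes (rows); filled points passed an adjusted p below 0.05 in limma and vertical bars are medians. The medians run from -0.29 for the MAP kinases to 0.71 for the transcripts that follow ERK, and 1 of the 10 phosphatases is filled.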

How the data were processed

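The authors sequenced polyA RNA (31200000 to 41400000 paired reads of 150 bp per sample, per the labels) and, by the submitters' processing notes and the paper, checked reads with FastQC 0.11.9 and quantified them with Salmon 1.8, with GC-bias correction, on the EquCab3.0 transcriptome. The authors deposited log2 values, normalized between libraries, with 1 lowest value (3.4332) shared by all libraries. The transformation is not named in the sources used here and was treated as the variance stabilization of DESeq2 1.36, which the authors used, so normalized counts and the reads estimated from the smallest values are approximate. No count test was run.

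The 17992 genes that exceeded the lowest value in 5 or more of the 10 libraries were tested in limma 3.58.1 (R 4.3.3, prior variance trended on the mean). The study names no donor term and the main model had none. A further model took the replicate number, the tenocyte line of the labels, as a block. Libraries of the same line, hence the same animal, deviated together from their group means (correlations across genes of 0.367 to 0.506 over 5 pairs, against -0.266 to 0.0869 over 20 pairs of different lines). Deviations from a group mean cancel within the group, so positive correlations within lines bring negative ones between lines. No pair of libraries was identical (correlations 0.936 to 0.985). Adjusted p-values are Benjamini-Hochberg over all tested genes. The fit without the block was run on simulated counts without donor effects, in which the genes with the fewest reads were left unchanged. That run therefore says nothing about the fit with the block or about such genes. All members are named; of each pathway list, at most 3 called genes in each direction by adjusted p, or the 2 largest changes where none was called. Others, such as MAPK8, MAPK9, MAPK14, MAP3K7, MAP3K11, MAP3K5, STYX, SPRY2, NLK, FOS, NR4A2, ETV4, ETV5, KLF6, KLF10, MAPKAPK2 and MAPKAPK3, were named after their values were seen. The members and lists were chosen with earlier results of these data known. Of 141 listed genes, 135 were found in the table, and a result for 1 of them is not reported here. Members were found by symbol in RefSeq for another horse assembly, so no positions are given. Alternatives covered filters, scales, normalization, thresholds, pairing and leaving out libraries. The fits with the block and without a donor were added after the data had been seen.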

Additional observations from a re-analysis of the deposited data

Results flagged for a closer look

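By Dixon's test, 1 library stood apart from the rest in 4 of the 56 groups of 5 libraries examined for the named genes, where chance gives about 2.8. DUSP6 was at 9.22 in the IL-1β plus PF-06650833 library of donor 4, against 11.09 to 11.54 in the other 4 donors. ETV1 was at 13.34 in the same library, against 13.85 to 14.03. Under the same treatment donor 3 had PTPN7 at 4.36, an estimated 4 reads, with no read in the other 4 libraries, and donor 5 had ARRB1 at 4.81, an estimated 9 reads, against 5.996 to 6.26. For PTPN7 any read in donor 3 would have been flagged, since the other 4 libraries share the lowest value. That flag therefore adds nothing to the comparison with chance. The cause of these values was not tested.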

How the results depend on the processing

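Over all genes, 1202 were differentially expressed in the main limma fit (560 higher, 642 lower). There were 2782 without a minimum fold change, 3996 without it and with the replicate block, and 719 at an adjusted p below 0.01. Without single libraries or donors the number lay between 762 and 1422, and between 1177 and 1677 with the block. In the family the number was 0. It was 1 with the replicate block (DUSP2), against 1486 of all 17992 genes. It was also 1 (DUSP16) without a minimum fold change, against 2782. The same gene alone counted on log2(normalized count + 1 or + 0.5), against 1376 and 1361, and on quantile normalized and median centred values, against 1200 and 1205. The number was 4 without a minimum fold change and with the block (DUSP2, DUSP7, DUSP10, DUSP16), against 3996 of all genes. Without single libraries or donors it was 0 to 2, against 762 to 1422 of all genes, and 1 to 3 with the block, against 1177 to 1677. The 3 were DUSP2, DUSP9 and DUSP16 with the block and without donor 4, a setting chosen after seeing the data. The directions of DUSP1, DUSP2, DUSP5, DUSP6, DUSP7, DUSP9, DUSP10 and DUSP16 held under every alternative run. For DUSP5 and DUSP6, however, the fold change shrank to 0.0188 and 0.0886 without both libraries of donor 5 (adjusted p = 0.982 and 0.938 from limma). The fold change of DUSP4 ranged from -0.19 to 0.88 and that of DUSP8 from -0.20 to 0.0528 when libraries or donors were left out, with a turn of sign in 4 fits for DUSP4 and in 5 for DUSP8. DUSP22, KLF4, NR4A3 and MKNK2 lost their call in 11, 9, 10 and 1 of the alternatives. DUSP9 was not tested where every library had to lie above the lowest value. Beside the call of DUSP2, the block brought DUSP7 and DUSP10 under the adjusted p without the minimum fold change. Genes with few reads, DUSP2 and DUSP9, limit what can be resolved, and 5 donors give wide intervals.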

Other observations

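Some transcripts that commonly follow ERK activity went in donor 4 the way of DUSP4, DUSP5 and DUSP6. These genes were picked after their values had been seen. CCND1, the gene of cyclin D1, differed by -0.87 in donor 4 and by 1.43, 1.28, 1.16 and 1.70 in donors 1, 2, 3 and 5. PHLDA1 differed by -0.76 in donor 4 and by 0.22, 1.28, 0.61 and 1.89 in the others, and SPRY4 by -0.36 and by 0.75, 0.65, 1.22 and 1.34. Other genes of the same list did not follow this order, since EGR1 differed by 0.84 in donor 4, its highest value, and FOSL1 by 1.43. With 5 donors no relation between these genes was tested.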
